A study of Arabidopsis thaliana with 4 samples.

Results

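The BEE, HAF, HBI1 and CIB genes encode related transcription factors of the basic helix-loop-helix (bHLH) class, and 8 of them were followed among the 37051 loci counted in the Arabidopsis funiculus, the stalk that joins the seed to the fruit. They are BEE1 (AT1G18400), BEE2 (AT4G36540), BEE3 (AT1G73830), HAF (AT1G25330, also called CESTA), HBI1 (AT2G18300), CIB1 (AT4G34530), CIB5 (AT1G26260) and AT5G48560, for which the reference gene table gives CIB2 as a synonym. The genes were taken by locus identifier, and they were chosen by their annotated roles together with the stk over wild-type fold changes of these same libraries. Their values in that comparison are therefore given as a description, and nothing is supported with a test of them.

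The mutant group was seedstick (stk), a mutant of the MADS-box factor STK, which sets ovule identity and acts in seed detachment, and the other group was wild-type plants of the Columbia ecotype. The labels name no allele for stk. All plants grew at 22 °C with 16 h of light and 8 h of dark, and each of the 4 libraries (2 biological replicates per genotype) was made from polyadenylated RNA of 100 pooled funiculi at stage 17 of flower development, after fertilisation. A funiculus library mixes epidermis, cortex and vascular tissue, so fewer cells of a type and less RNA per cell cannot be told apart.

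bHLH factors bind DNA as dimers, with a basic region that contacts the E-box (CANNTG) and a helix-loop-helix that joins the partners. BEE1, BEE2 and BEE3 are early brassinosteroid response genes, and HAF acts with BEE1 and BEE3 in the development of the transmitting tract through which pollen tubes grow. HBI1 promotes cell elongation and is held back by the inhibitor IBH1, and CIB proteins bind the blue-light receptor CRY2, with CIB1 known to activate the flowering gene FT.

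The basic regions are shown because they encode the DNA-contacting stretch that all 8 proteins have. The coding bases around the conserved core are given 5′ to 3′ from the RefSeq annotation of TAIR10.1, and capitals mark the 22 of 54 bases identical in all 8 genes. CIB3 (AT3G07340), a relative outside the set that returns below, is added for comparison.
BEE1: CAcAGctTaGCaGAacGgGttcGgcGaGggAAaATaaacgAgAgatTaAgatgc
BEE2: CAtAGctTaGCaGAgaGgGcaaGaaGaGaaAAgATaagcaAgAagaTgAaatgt
BEE3: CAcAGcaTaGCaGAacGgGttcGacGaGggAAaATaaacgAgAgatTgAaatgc
HAF: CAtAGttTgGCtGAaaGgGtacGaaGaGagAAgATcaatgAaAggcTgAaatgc
HBI1: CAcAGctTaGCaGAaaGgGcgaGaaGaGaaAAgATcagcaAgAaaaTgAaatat
CIB1: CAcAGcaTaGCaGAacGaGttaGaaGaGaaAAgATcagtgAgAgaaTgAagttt
CIB5: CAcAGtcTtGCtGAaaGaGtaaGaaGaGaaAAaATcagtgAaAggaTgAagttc
CIB2: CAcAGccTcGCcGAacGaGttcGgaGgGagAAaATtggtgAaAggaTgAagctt
CIB3: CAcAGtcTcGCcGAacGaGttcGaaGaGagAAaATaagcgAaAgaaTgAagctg
An intron interrupted this stretch after base 18 in every one of these genes. The intron was 435 bases long in CIB2 and 78 to 101 bases in the other 7 of the set. CIB3 differed from CIB2 at 8 of the 54 bases, CIB1 and CIB5 at 13 each, and BEE2 at 23. Over the coding bases that could be aligned, with gaps left out, identity between members ranged from 66.0% to 81.8%. The lowest was HBI1 and CIB1 (966 aligned bases) and the highest BEE1 and BEE3 (730 aligned bases). CIB2 and CIB3 were 79.1% identical over 1311 aligned bases, and the longest run of bases their transcripts shared exactly was 32. How the counting treated reads with several matching places is unknown here, and how far reads were split between relatives was not tested.

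STK (AT4G09960), the mutated gene, was read in every library, at 237 and 325 CPM in stk and at 373 and 554 CPM in wild type (CPM, a gene's count scaled to a common library size, with TMM factors applied to the totals). The log2 fold change of STK was -0.72 ± 0.43 (SE; edgeR adjusted p = 1.0), and a whole-gene count cannot check an allele whose RNA is still made. STK overlaps AT4G09950 on the opposite strand. Library totals ranged from 4033589 to 12099218 counts. The most alike libraries were stk replicate 2 and wild-type replicate 2 (Pearson's r = 0.878 across 18092 genes, which are not independent replicates), and r was 0.777 between the stk libraries and 0.753 between the wild-type libraries. stk replicate 1 had no counts for 159 of 11337 genes that reached 10 CPM in the other 3 libraries, against 0 of 10288 for stk replicate 2, 35 of 10809 for wild-type replicate 1 and 2 of 10454 for wild-type replicate 2. Markers of embryo and endosperm (10 genes, ABI3 and PHE1 at 0 throughout) summed to 97.6 and 9.35 CPM in stk replicates 1 and 2 and to 244 and 5.40 CPM in wild-type replicates 1 and 2. Pollen markers summed to 1124 and 385 CPM in stk and to 856 and 597 CPM in wild type. Phloem markers summed to 1472 and 733 CPM in stk and to 1834 and 447 CPM in wild type, and xylem markers to 1251 and 155 CPM in stk and to 215 and 66.0 CPM in wild type. These 4 sums were higher in replicate 1 than in replicate 2 of both genotypes. So was the sum of green tissue markers, at 7123 and 6701 CPM in stk and 10178 and 4213 CPM in wild type. In stk, however, RBCS1A, CAB3 and RCA of that list were higher in replicate 2. Seed coat markers (7 genes) summed to 121 and 106 CPM in stk, against 61.9 and 81.1 CPM in wild type. Both stk sums were higher. MUM4 made up most of each sum, at 96.0 and 77.3 CPM in stk, against 32.3 and 74.1 CPM in wild type. MUM2 was also higher in both stk libraries, TT12 was lower in both, and BAN, TT8 and GL2 overlapped. TT16 had no counts. Markers of septum and transmitting tract (4 genes) summed to 10.6 and 14.5 CPM in stk, against 69.6 and 42.2 CPM in wild type. Here both stk sums were lower. HEC1 and HEC2 had no counts, so these sums are NTT and HEC3 alone, which return below among the transmitting tract regulators. Single markers differed from their list's sum. Of the 5 phloem markers, the sieve element genes SEOR1 and SEOR2 were higher in both stk libraries, while SUC2, APL and AHA3 overlapped between the genotypes with log2 fold changes of -0.13, -0.38 and -0.41. SEOR1 had 70.7 and 48.2 CPM in stk, against 2.69 and 4.94 CPM in wild type. That was 15.3-fold (edgeR adjusted p = 0.329, limma-voom adjusted p = 0.544, DESeq2 adjusted p = 4.64e-05). SEOR2 had 174.5 and 90.2 CPM in stk, against 37.1 and 28.4 CPM in wild type. That was 4.04-fold (edgeR adjusted p = 0.635, limma-voom adjusted p = 0.127, DESeq2 adjusted p = 0.049). DESeq2 called 0.884% of all tested genes. Of the 6 xylem markers, the cellulose synthase gene IRX1 had 196 and 26.2 CPM in stk, against 21.9 and 5.67 CPM in wild type, while the other 5 overlapped, 4 with a positive log2 fold change and XCP1 with a negative one (-0.53). These genes were named after their values were seen, and the part of vascular, seed coat or septum tissue in the differences between groups was not tested.

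CIB2 was the member with the largest difference between the genotypes. It had 124 and 213 CPM in stk, against 10.9 and 19.4 CPM in wild type. The lowest stk value was above the highest wild-type value, and in each genotype replicate 2 was the higher library. The means were 169 ± 63.2 CPM in stk and 15.2 ± 5.98 CPM in wild type (SD, n = 2 each), an edgeR log2 fold change of 3.47 ± 0.53 (SE), or 11.1-fold. The estimate lay between 3.01 and 3.95 when any 1 library was left out. CIB2 ranked 243 of 18092 tested genes from the highest fold change. Both stk values were above both wild-type values for 15.9% of the tested genes. No annotated gene overlaps CIB2 on either strand. Of the 11 phloem and xylem markers, 3 were likewise higher in both stk libraries and the other 8 overlapped, and the part of vascular tissue in the CIB2 difference was not tested.

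BEE2 and CIB5 were the only other members read in all 4 libraries, and their genotypes overlapped. BEE2 had 25.6 and 53.0 CPM in stk, against 32.5 and 30.1 CPM in wild type. The wild-type values lay between the stk values. Its log2 fold change was 0.33 ± 0.55 (SE) and ranged from -0.30 to 0.78 when 1 library was left out. CIB5 had 12.4 and 19.6 CPM in stk, against 8.43 and 25.0 CPM in wild type. Here the stk values lay between the wild-type values, and both genotypes were higher in replicate 2. Its log2 fold change was -0.063 ± 0.89 (SE) and ranged from -0.62 to 0.94 when 1 library was left out. Neither estimate has a settled direction.

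The other 5 members, HAF, BEE1, HBI1, BEE3 and CIB1, had few counts or none. HAF had 0 and 8 counts in stk, against 0 and 32 counts in wild type. That corresponds to 0.66 CPM in stk replicate 2 and 2.93 CPM in wild-type replicate 2. BEE1 had 0 and 16 counts in stk and no counts in wild type. The 16 counts were 1.31 CPM, and BEE1 was 5.48-fold higher in stk when wild type is set to 3 counts in all. That ratio takes the 16 counts as exact and rests on stk replicate 2 alone. HBI1 had no counts in stk, against 0 and 10 counts in wild type. It was 3.24-fold lower in stk when stk is set to 3 counts in all. This ratio takes the 10 counts as exact and rests on wild-type replicate 2 alone. BEE3 and CIB1 had no counts in any library, which at 3 counts allows up to 0.774 CPM in the shallowest library and 0.246 CPM in the deepest. In the replicate 1 libraries all 5 of these genes were at 0. None of the 5 passed the filter on low counts, and neither HAF, which overlaps AT1G25320 on the opposite strand, nor CIB1, which overlaps AT4G34540 on its own strand, can be separated from its neighbour where the annotations overlap.

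**Figure D1:**
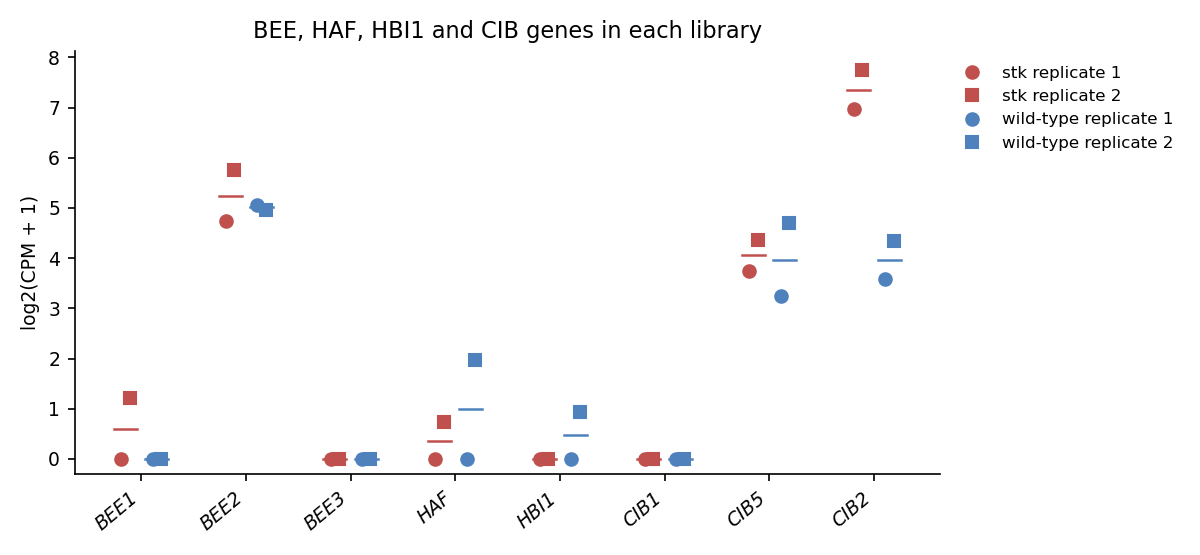
Level of each of the 8 genes in each library, as log2(CPM + 1), with circles for replicate 1, squares for replicate 2 and a line at the mean of the plotted values. CIB2 separates stk (124 and 213 CPM) from wild type (10.9 and 19.4 CPM), BEE2 and CIB5 overlap between genotypes, and the other 5 genes lie at or near 0.

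The fit across all genes called few of any kind, and the members are read against that background. edgeR's quasi-likelihood test at a false discovery rate of 0.05 called 0 of the 3 members that passed the filter, where it called 0.00553% of all tested genes (1 of 18092). At an unadjusted p under 0.05, edgeR passed 1 of the 3, against 3.36% of all tested genes. DESeq2 called 1 of the 3, against 0.884% of all tested genes (0.619% called higher in stk), and limma-voom 1 of the 3, against 0.205%. The called member was CIB2 each time. Since CIB2 was singled out on this contrast, these calls describe how it was chosen.

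The make-up of the members' reads differed between the genotypes. CIB2 gave 76.6% (Wilson 95% interval 73.1 to 79.7) of the counts of the 8 genes in stk replicate 1 and 74.1% (72.6 to 75.5) in stk replicate 2. In wild type it gave 21.1% (16.8 to 26.2) in replicate 1 and 24.8% (22.0 to 27.8) in replicate 2. These shares restate the CIB2 difference on which the set was chosen, and the intervals cover counting error only. BEE2 gave 15.8% and 18.4% in stk, against 62.6% and 38.4% in wild type. CIB5 gave 7.66% and 6.81% in stk, against 16.3% and 31.9% in wild type. The wild-type libraries differed from each other in how much of the remainder was BEE2 and how much CIB5. CIB2 had 10 and 10.9 counts per CIB5 count in stk, against 1.298 and 0.777 in wild type. It had 4.85 and 4.02 counts per BEE2 count in stk, against 0.337 and 0.644 in wild type.

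**Figure D2:**
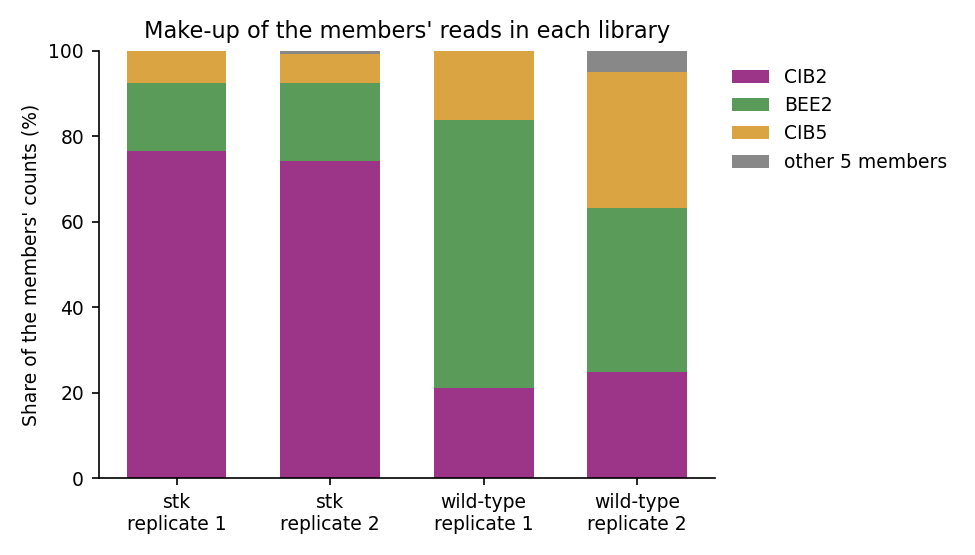
Share of the counts of the 8 genes that fell on CIB2, BEE2, CIB5 and the other 5 genes, in percent, for each library. CIB2 makes up 76.6% and 74.1% in stk and 21.1% and 24.8% in wild type.

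Per kilobase of coding sequence, which allows levels to be compared between genes, the order of the 3 members read in all 4 libraries differed between the genotypes. The other 5 members lay below them in both. In stk, CIB2 stood first at 82.8 and 143 CPM per kb, BEE2 second at 27.9 and 57.9, and CIB5 below them at 10.6 and 16.7. None of these neighbours overlapped in stk. In wild type, BEE2 stood first at 35.5 and 32.9 CPM per kb, CIB5 second at 7.19 and 21.3, and CIB2 below them at 7.31 and 13.0. CIB5 and CIB2 overlapped in wild type, so their order there is not resolved, while both BEE2 values were above all values of CIB5 and CIB2. The order of the means was the same per kilobase of transcript. There CIB2, BEE2 and CIB5 averaged 75.2, 28.8 and 8.23 CPM per kb in stk, and BEE2, CIB5 and CIB2 averaged 23.0, 8.60 and 6.77 in wild type.

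Among 9 close bHLH relatives outside the set, all of which passed the filter, CIB3 and AT3G57800 had both stk values above both wild-type values and AT2G42300 had both below. Values of the genotypes did not overlap for 32.4% of all tested genes. The 9 relatives summed to 384 and 592 CPM in stk, against 505 and 482 CPM in wild type, and the genotypes overlapped in this sum. The median log2 fold change of the 9 was -0.22, beside -0.075 over all tested genes, with 3 positive and 6 negative, and it was 0.14 with stk replicate 1 left out and -0.86 with stk replicate 2 left out. edgeR called none of the 9, and 2 had an unadjusted p under 0.05, against 3.36% of all tested genes. DESeq2 called 1 lower, against 0.884% of all tested genes in either direction, and limma-voom called 1 (0.205%).

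CIB3, named like CIB2 for an interaction with CRY2, had 134 and 184 CPM in stk, against 53.7 and 21.4 CPM in wild type. Both stk values were above both wild-type values. Its log2 fold change was 2.08 ± 0.54 (SE), which did not pass edgeR (adjusted p = 0.743) or DESeq2 (adjusted p = 0.0683) and passed limma-voom (adjusted p = 0.0357). Without wild-type replicate 1 the estimate was 2.91 (edgeR adjusted p = 0.00951), and over the other 3 fits with a library left out the adjusted p ranged from 0.298 to 0.643. CIB2 and CIB3 had similar counts in stk, with 0.927 and 1.16 CIB2 counts per CIB3 count, and also in wild-type replicate 2 with 0.906. In wild-type replicate 1 the ratio was 0.204.

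AT2G42300, annotated as a bHLH protein, differed the other way and with little spread. It had 26.3 and 27.6 CPM in stk, against 105 and 112 CPM in wild type. The replicates of each genotype were close and the genotypes did not overlap. Its log2 fold change was -2.01 ± 0.41 (SE), which did not pass edgeR (adjusted p = 0.449) or limma-voom (adjusted p = 0.124) and passed DESeq2 (adjusted p = 0.00687). In edgeR with 1 library left out the adjusted p was 0.112 or higher, and the estimate stayed between -2.05 and -1.95. Its nearest relative by coding sequence, AT3G57800, was 82.8% identical over 981 aligned bases. AT3G57800 had 87.0 and 91.2 CPM in stk, against 82.2 and 79.9 CPM in wild type, a log2 fold change of 0.14 ± 0.39 (SE).

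The other 6 relatives overlapped between the genotypes. CIB4 (AT1G10120) had 20.7 and 80.6 CPM in stk, against 24.6 and 53.5 CPM in wild type. CIL1 (AT1G68920), named for its likeness to CIB1, had 24.3 and 38.6 CPM in stk, against 45.8 and 31.8 CPM in wild type, and CIL2 (AT3G23690) had 43.6 and 74.9 CPM in stk, against 39.1 and 99.2 CPM in wild type. BPE (AT1G59640), which limits petal growth, had 15.7 and 21.8 CPM in stk, against 35.5 and 21.4 CPM in wild type. AT5G50915 was high in a single library, with 4.13 and 5.50 CPM in stk, against 70.2 and 2.47 CPM in wild type, and its log2 fold change of -2.90 was 0.98 with wild-type replicate 1 left out. AT5G62610 had 28.9 and 67.6 CPM in stk, against 49.0 and 60.3 CPM in wild type.

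**Figure D3:**
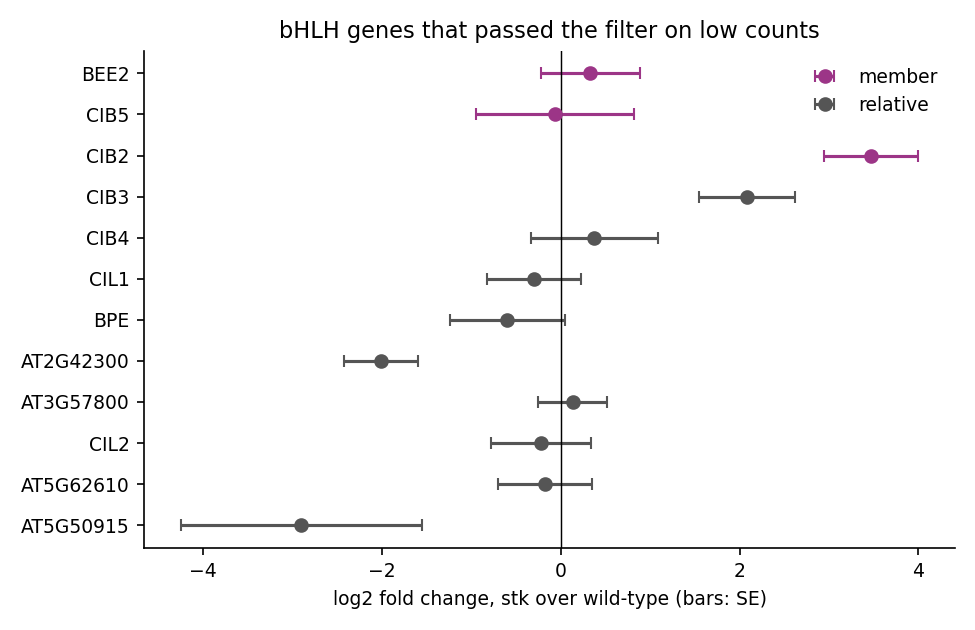
log2 fold change of stk over wild type for the 3 members and 9 relatives that passed the filter on low counts, with bars for the SE from the edgeR fit. CIB2 (3.47) and CIB3 (2.08) lie to the right, AT2G42300 (-2.01) and AT5G50915 (-2.90) to the left, and the other genes lie within 1 of 0.

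The 250 bases before the annotated gene starts (none overlapping another gene) are shown for CIB3, which was higher in both stk libraries, and for BEE2, whose genotypes overlapped. They come from the RefSeq annotation of TAIR10.1. The CIB3 window lies at chr3:2343698-2343947 on the minus strand and the BEE2 window at chr4:17243333-17243582 on the plus strand. Capitals mark E-boxes, and each sequence reads 5′ to 3′ on the strand of its gene.
CIB3: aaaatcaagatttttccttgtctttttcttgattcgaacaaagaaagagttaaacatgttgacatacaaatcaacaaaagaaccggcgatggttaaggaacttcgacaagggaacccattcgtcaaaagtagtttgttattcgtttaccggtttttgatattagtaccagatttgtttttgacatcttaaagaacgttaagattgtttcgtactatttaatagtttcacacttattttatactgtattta
BEE2: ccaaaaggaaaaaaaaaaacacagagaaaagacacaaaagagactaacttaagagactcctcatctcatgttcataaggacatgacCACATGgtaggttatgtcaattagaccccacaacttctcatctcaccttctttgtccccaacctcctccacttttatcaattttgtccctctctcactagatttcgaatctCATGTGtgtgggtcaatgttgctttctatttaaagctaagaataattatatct
Each window was searched on both strands for the E-box CANNTG, the G-box CACGTG (which is also an E-box), the brassinosteroid response letters CGTGTG and CGTGCG, and the CArG box, the element bound by MADS-box proteins. None of these letters occurred in the CIB3 window. The BEE2 window held 2 E-boxes, where 55.3% of 27443 windows of the same length held at least 1. Among the 7 members other than CIB2, only BEE1 held a G-box (6.5% of all windows), HAF and HBI1 each held CGTGTG (5.4%), and none held CGTGCG (1.6%) or a CArG box (2.5%). Among the 9 relatives, AT2G42300 and AT3G57800 each held a CArG box. These matches describe letters in short windows and are not binding sites.

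Partners without DNA binding were looked at next, since bHLH activity depends on them. Of 15 HLH partners and inhibitors, 11 passed the filter. edgeR, DESeq2 and limma-voom called 0 of the 11, and edgeR gave 0 at an unadjusted p under 0.05. The median log2 fold change was 0.25, and leaving out stk replicate 2 made it -3.58, leaving out wild-type replicate 1 made it -0.68 and leaving out wild-type replicate 2 made it 1.37. IBH1 (AT2G43060), the inhibitor of HBI1, had 84.7 and 68.2 CPM in stk, against 58.1 and 28.6 CPM in wild type. AIF2 (AT3G06590), of a family that restrains brassinosteroid growth, had 61.4 and 62.5 CPM in stk, against 16.9 and 44.6 CPM in wild type, and its relative AIF3 (AT3G17100) had 46.2 and 67.0 CPM in stk, against 31.4 and 57.0 CPM in wild type. These inhibitors were read in every library, while HBI1 was at or near 0. Transcripts of the PRE proteins, which relieve such inhibition, were sparse. BNQ2, PRE3 and BNQ3 had no counts, PRE1 (AT5G39860) was read only in the replicate 2 libraries at 6.40 CPM in stk and 3.29 CPM in wild type, and KDR (AT1G26945) likewise at 1.39 CPM in stk and 1.19 CPM in wild type. PAR1 (AT2G42870), a shade-response inhibitor, had 0 and 1.72 CPM in stk, against 3.05 and 13.5 CPM in wild type, and IBL1 (AT4G30410), a relative of IBH1, had 9.29 and 26.0 CPM in stk, against 0 and 2.20 CPM in wild type. HFR1 (AT1G02340), an atypical factor that restrains PIF proteins, had 7.74 and 16.4 CPM in stk, against 2.87 and 20.9 CPM in wild type. PAR2 (AT3G58850) was read only in the replicate 2 libraries, at 6.65 CPM in stk and 25.4 CPM in wild type. AIF4 (AT1G09250) had 0 and 9.03 CPM in stk, against 14.0 and 31.8 CPM in wild type, and AIF1 (AT3G05800) had 0 and 3.45 CPM in stk, against 4.31 and 15.1 CPM in wild type. Of the 11, 3 (PAR1, AIF4 and AIF1) had both stk values below both wild-type values, against 16.6% of all tested genes. Another 3 (IBH1, AIF2 and IBL1) had both above, against 15.9%. PAR1, AIF4 and AIF1 had no counts in stk replicate 1, the shallowest library, and IBL1 had none in wild-type replicate 1.

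Genes of brassinosteroid synthesis and breakdown were more often lower than higher in stk. Of 12 genes 11 passed the filter, 8 with a negative and 3 with a positive log2 fold change and a median of -0.58, beside -0.075 over all tested genes. edgeR called none, and 2 had an unadjusted p under 0.05, against 3.36% of all tested genes. DESeq2 called 1 lower, against 0.884% of all tested genes in either direction, and limma-voom called none (0.205%). CYP90D1 (AT3G13730), a hydroxylase that acts alongside ROT3, had 35.4 and 32.7 CPM in stk, against 110 and 139 CPM in wild type. ROT3 (AT4G36380), named after its values were seen, differed the other way, with 342 and 365 CPM in stk, against 280 and 270 CPM in wild type. The log2 fold change of CYP90D1 was -1.87 ± 0.41 (SE; edgeR adjusted p = 0.522, DESeq2 adjusted p = 0.0142, limma-voom adjusted p = 0.124), and the edgeR adjusted p ranged from 0.0898 to 1.0 with 1 library left out. BR6OX2 (AT3G30180), the enzyme of the last step to brassinolide, had 40.5 and 141 CPM in stk, against 345 and 232 CPM in wild type. DWF4 (AT3G50660), the rate-limiting hydroxylase, was low, at 5.68 and 17.1 CPM in stk, against 3.05 and 2.75 CPM in wild type. CYP72C1 (AT1G17060), which inactivates brassinosteroids, had 0 and 9.44 CPM in stk, against 7.36 and 37.9 CPM in wild type. Of the 11 tested genes, 5 had both stk values below both wild-type values, against 16.6% of all tested genes. Another 3 (ROT3, DWF5 and DWF4) had both above, against 15.9%.

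Brassinosteroid signalling genes summed to 839.8 and 802 CPM in stk, against 695.6 and 743.8 CPM in wild type, with both stk sums above both wild-type sums. The sum adds genes of different roles and does not measure signalling. Large parts of it were the kinase genes BIL1 and GSK1, named after their values were seen, which overlapped. BIL1 had 175 and 127 CPM in stk, against 87.9 and 142 CPM in wild type. GSK1 had 109 and 115 CPM in stk, against 56.0 and 116 CPM in wild type. Of 16 genes 14 passed the filter, 10 positive and 4 negative, with a median of 0.23. edgeR, DESeq2 and limma-voom called 0 of them, and 0 had an unadjusted edgeR p under 0.05. The main receptor gene BRI1 (AT4G39400) had 62.0 and 83.5 CPM in stk, against 83.1 and 58.3 CPM in wild type. The response factors overlapped as well, with BES1 (AT1G19350) at 94.0 and 86.3 CPM in stk, against 91.2 and 63.4 CPM in wild type, and BZR1 (AT1G75080) at 76.2 and 37.4 CPM in stk, against 16.5 and 47.3 CPM in wild type. The BRI1-like receptor gene BRL3 (AT3G13380) had 19.9 and 29.5 CPM in stk, against 50.2 and 57.9 CPM in wild type, with both stk values below both wild-type values. BRL1 (AT1G55610), of the same receptor family, had 0.774 and 6.89 CPM in stk, against 14.4 and 9.06 CPM in wild type, and BEH3 (AT4G18890), a relative of BES1, had 2.32 and 12.2 CPM in stk, against 13.1 and 13.8 CPM in wild type, again with both stk values lower. Of the 14 tested genes, 3 had both stk values below both wild-type values, against 16.6% of all tested genes, and 4 (BKI1, BSK1, BIN2 and BEH2) had both above, against 15.9%.

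**Figure D4:**
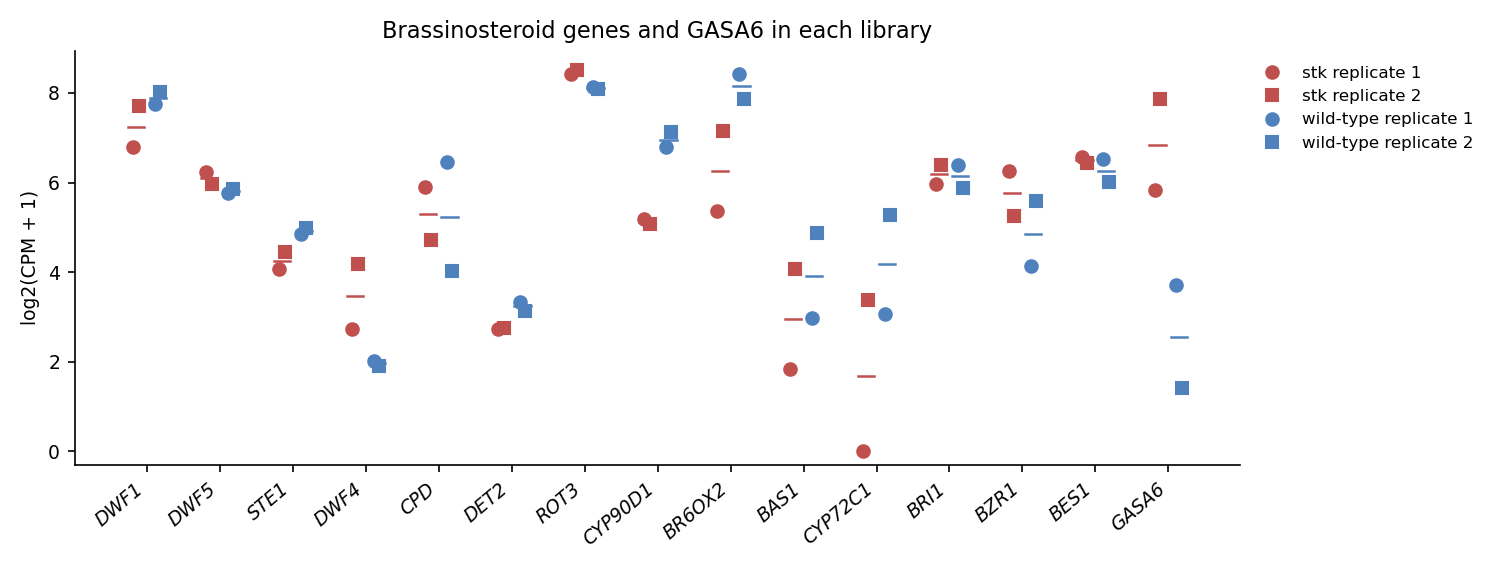
Level of brassinosteroid synthesis, breakdown and signalling genes and of GASA6 in each library, as log2(CPM + 1), with circles for replicate 1, squares for replicate 2 and a line at the mean of the plotted values. CYP90D1 and BR6OX2 lie lower in both stk libraries than in both wild-type libraries, GASA6 lies higher, and BRI1, BZR1 and BES1 overlap.

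Light signalling genes around the CIB factors summed to 2447 and 1282 CPM in stk, against 3286 and 986 CPM in wild type, so the genotypes overlapped. FT, given below, is in this list and made up most of each sum. Of 15 genes 14 passed the filter, 8 positive and 6 negative, with a median of 0.14 that was -0.15 with stk replicate 1 left out and -0.18 with wild-type replicate 2 left out. edgeR, DESeq2 and limma-voom called 0, and 0 had an unadjusted edgeR p under 0.05. CRY2 (AT1G04400), the receptor that CIB proteins bind, had 43.4 and 41.4 CPM in stk, against 31.9 and 27.5 CPM in wild type. PHYA (AT1G09570), a far-red light receptor gene, had 70.2 and 42.3 CPM in stk, against 35.5 and 43.7 CPM in wild type. PIF4 (AT2G43010), a growth-promoting bHLH factor, was low, at 9.29 and 1.56 CPM in stk, against 2.33 and 3.84 CPM in wild type. PIL1 (AT2G46970), a shade-induced bHLH gene, had 12.1 and 45.2 CPM in stk, against 59.8 and 73.5 CPM in wild type, and LKP2 (AT2G18915), of the ZTL photoreceptor family, had 5.16 and 6.07 CPM in stk, against 19.2 and 8.24 CPM in wild type. FT (AT1G65480), the gene that CIB1 is known to activate and chosen here after its values were seen, was abundant, at 1990 and 895 CPM in stk, against 2818 and 614 CPM in wild type. Its genotypes overlapped, and it was higher in replicate 1 of both, as was the sum of the phloem markers. CIB1 itself had no counts in these libraries.

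Of 12 growth targets, genes of wall loosening and elongation, 10 passed the filter, 6 positive and 4 negative, with a median of 0.27 (-0.16 without stk replicate 2). edgeR called none, and 1 had an unadjusted p under 0.05, against 3.36% of all tested genes. DESeq2 called 1 higher, against 0.619% of all tested genes called higher, and limma-voom called none (0.205%). GASA6 (AT1G74670), a gibberellin-regulated peptide gene of cell elongation, had 56.0 and 232 CPM in stk, against 12.0 and 1.65 CPM in wild type. The log2 fold change was 4.44 ± 1.05 (SE; edgeR adjusted p = 0.625, DESeq2 adjusted p = 0.00179, limma-voom adjusted p = 0.18), and in edgeR it was 6.47 with wild-type replicate 1 left out (adjusted p = 1.15e-05), while the other libraries, each left out in turn, gave 5.14 (stk replicate 1), 3.05 (stk replicate 2) and 3.60 (wild-type replicate 2) with adjusted p from 0.0987 to 0.263. GASA6 overlaps AT1G74675 on the other strand, and reads of such pairs cannot be separated with this kit. EXPA8 (AT2G40610) had 4.13 and 15.7 CPM in stk, against 0 and 0.55 CPM in wild type, and EXPA1 (AT1G69530) had 27.6 and 199.97 CPM in stk, against 80.4 and 67.3 CPM in wild type. Both expansin genes are known targets of HBI1. GASA4 (AT5G15230), a relative of GASA6, had 28.1 and 245 CPM in stk, against 57.4 and 615 CPM in wild type, and XTH5 (AT5G13870), a wall-modifying enzyme gene, had 3.10 and 11.4 CPM in stk, against 12.0 and 19.2 CPM in wild type.

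Regulators of the transmitting tract, the tissue in which HAF, BEE1 and BEE3 act, were compared last among the lists. Of 10 genes 6 passed the filter, and the log2 fold change was negative for all 6 (median -1.11) with all libraries. That sign turned for ALC with stk replicate 2 left out (0.086) or wild-type replicate 2 left out (0.054), and for ARF6 with wild-type replicate 2 left out (0.22). Both stk values were below both wild-type values for 4 of the 6, against 16.6% of all tested genes. edgeR, DESeq2 and limma-voom called 0 of the 6, with 2 at an unadjusted edgeR p under 0.05, against 3.36% of all tested genes. NTT (AT3G57670), a zinc finger factor of transmitting tract development, had 7.74 and 13.1 CPM in stk, against 40.4 and 32.6 CPM in wild type, and SPT (AT4G36930), a bHLH factor of carpel tissues, had 3.87 and 19.3 CPM in stk, against 33.6 and 31.4 CPM in wild type. HEC3 (AT5G09750), a bHLH factor of the same tract, had 2.84 and 1.39 CPM in stk, against 29.3 and 9.61 CPM in wild type, and ARF8 (AT5G37020), an auxin response factor, had 69.7 and 121 CPM in stk, against 153 and 168 CPM in wild type. The genotypes overlapped for ALC (AT5G67110), at 26.1 and 10.8 CPM in stk, against 17.8 and 30.9 CPM in wild type, and for ARF6 (AT1G30330), at 94.5 and 75.1 CPM in stk, against 73.2 and 118 CPM in wild type. Both are given to complete the list. NTT and HEC3 also mark septum tissue, whose part in these differences was not tested. HEC1, HEC2, WIP4 and WIP5 had no counts in any library.

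**Figure D5:**
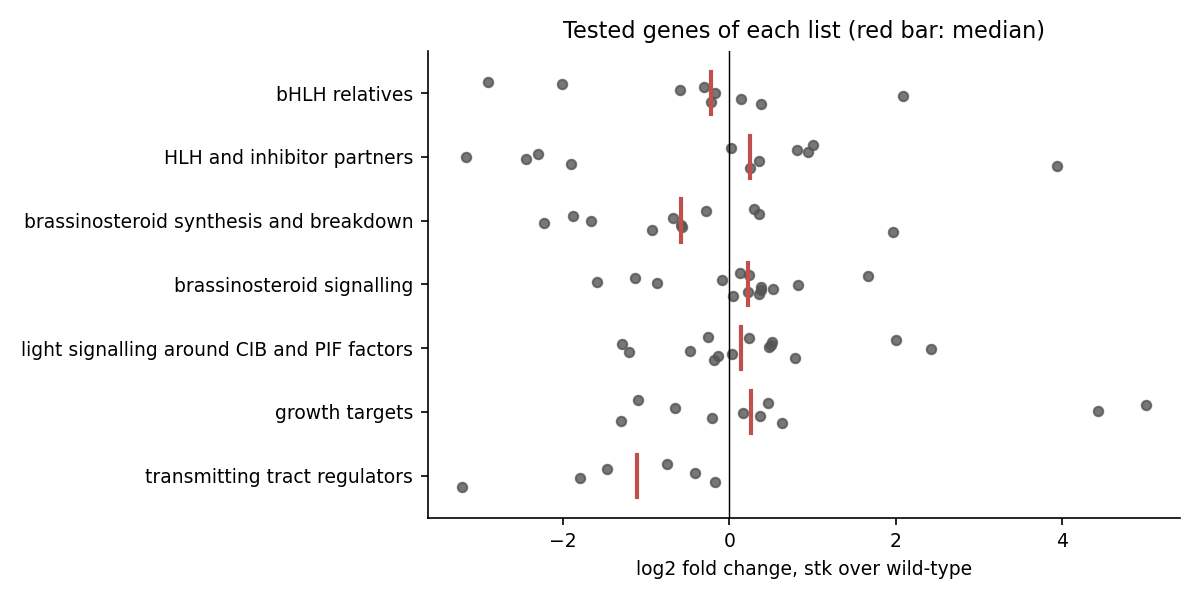
log2 fold change of stk over wild type for each tested gene of the 7 lists, with a red bar at the list's median. The transmitting tract regulators all lie below 0 (median -1.11), brassinosteroid synthesis and breakdown lies mostly below 0 (median -0.58), and the other medians lie between -0.22 and 0.27.

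The genes whose profile was most like that of CIB2 were sought by the root-mean-square difference in log2 CPM, each gene centred on its mean of the 4 libraries, among the 13564 tested genes that averaged 10 CPM or more. VSP2 (AT5G24770), a jasmonate-responsive storage protein gene, was closest at 0.21, with 425 and 606 CPM in stk, against 28.0 and 71.1 CPM in wild type. CYP86A7 (AT1G63710), a cytochrome P450 gene, and MLP165 (AT1G35260), of the major latex protein family, followed at 0.31 each, then AT5G57780 (P1R1) at 0.41 and the tonoplast aquaporin gene DELTA-TIP (AT3G16240) at 0.47. CIB3 ranked 127 at 0.99, BEE2 ranked 3310 at 1.65 and CIB5 ranked 4130 at 1.70. With 4 libraries such a likeness mostly restates the difference between genotypes, and any gene higher in stk and in replicate 2 scores well.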

How the data were processed

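Polyadenylated RNA from stage 17 funiculi was sequenced in 2 stk and 2 wild-type libraries, with the unstranded TruSeq v2 kit, per the labels' protocols. The authors deposited raw read counts per locus, with no normalization and no pooling of libraries. The submitters' processing notes name, without a role, R (given as 1.30.1), DESeq2 1.38.3, featureCounts 1.6.3, STAR 2.7.0 and Trimmomatic 0.38. For the counting, build, annotation, strand and multimapping settings were not given in the sources used here.

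The 18092 genes kept by filterByExpr were fitted with edgeR 4.0.16 (R 4.3.3; TMM, genotype as the single term, quasi-likelihood test, Benjamini-Hochberg false discovery rate of 0.05). The SE came from the F statistic, and CPM used TMM-scaled totals. Alternatives used limma-voom (limma 3.58.1) and DESeq2 1.42.0. The pipeline was tested on simulated data. P-values weigh the difference between genotypes against the spread between these samples. Totals of 4033589 to 12099218 counts put 3 counts at 0.774 to 0.246 CPM, for counting error only. Of the 37051 loci, 37051 matched the TAIR10.1 gene table, used for names; lengths and sequences came from its annotation.

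Members and lists were chosen with earlier results of these data known. Named were the members, STK, the relatives, the partners and inhibitors, up to 4 genes of each other list with the largest fold change at a mean of 5 CPM or more, the hubs BRI1, BZR1, BES1, CRY2, PIF4, EXPA1 and EXPA8, and the 5 genes most like CIB2. The upstream sequence of CIB2 is not reported here.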

Additional observations from a re-analysis of the deposited data

How the results depend on the processing

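The number of genes called moved with the processing. It was 1 in edgeR with all libraries, 275 without the filter, 0 where the mean had to reach 5 CPM (567 passed an unadjusted p of 0.05), 37 with limma-voom, 160 with DESeq2, and from 5 to 198 with 1 library left out. With the replicate number as a block it was 169. The replicate 1 minus replicate 2 differences of stk and wild type correlated at 0.245 across 18092 genes, but the labels do not say that a number marks a shared day or plant. Under that replicate block CIB3, AT2G42300, CYP90D1 and GASA6 passed (adjusted p = 0.0402, 0.0335, 0.0431 and 0.0344), as they did without the filter (adjusted p = 0.00305, 0.012, 0.0202 and 3.83e-12). The log2 fold change of CIB2, on which it was chosen, ranged from 3.01 to 3.95 over the 11 alternatives. With 1 library left out, the medians ranged from -3.58 to 1.37 for partners and inhibitors, from -0.18 to 0.44 for light signalling and from -1.72 to -0.94 for transmitting tract regulators. The light signalling median was -0.15 where the mean had to reach 5 CPM, and the transmitting tract median was -1.32 under the replicate block. Where a library was left out, the lone sample of its genotype is assumed to vary like the other genotype. The cause of these shifts was not tested.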
